A study of Bubalus bubalis with 12 samples.

Results

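Integrins are cell surface receptors made of an alpha and a beta subunit, which bind the extracellular matrix outside the cell and the cytoskeleton inside it. In stratified epithelia such as that of the rumen, alpha6beta4 anchors basal cells to laminin through hemidesmosomes, while beta1 pairs with many alpha subunits to bind laminin, collagen or fibronectin. The integrins alphavbeta6 and alphavbeta8 activate latent TGF-beta, and alpha5 and alpha8 are better known from vessels, fibroblasts and smooth muscle. The genes described here are 10 epithelial and stromal subunits, chosen by symbol: ITGA2, ITGA3, ITGA5, ITGA6, ITGA8, ITGAV, ITGB1, ITGB4, ITGB6 and ITGB8. All 10 were present among the 34037 genes of the deposited table, and all 10 were among the 12769 genes with at least 40 fragments in at least 1 animal, which were tested.

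RNA-seq was performed on frozen rumen wall of 12 Italian Mediterranean dairy buffaloes (Bubalus bubalis), 1 library per animal. The control group (n = 6) was fed a total mixed ration (TMR), and the treated group (n = 6) received TMR in which green ryegrass made up 30% of the diet. The comparison asks which transcripts differ with the green feed. Each sample was a piece of wall, so that fewer cells of a type and less RNA per cell cannot be told apart in any value given here.

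The libraries held between 10531541 and 12948372 counted fragments. The tissue label was checked against marker genes. The basal keratins KRT5 and KRT15 averaged 1493 and 847 FPKM (fragments per kilobase of transcript, scaled to the counted fragments of the library), whereas MYH11 and ACTA2, defining genes of smooth muscle, averaged 2.01 and 4.12 FPKM. Of the 7 enteric neuron and glia genes listed, 5 were below 0.1 FPKM on average, SOX10, ELAVL4 and PRPH among them. UCHL1 averaged 0.170 FPKM, and S100B, which other cell types also express, averaged 6.63. Transcripts of epithelial markers thus far exceeded those of smooth muscle markers. Control animal 6 and treated animal 6 stood apart from the others. They were the 2 lowest animals in 2456 of the 12769 genes tested (19.2%), and the next most frequent pair was lowest in 3.77%. Their mean log2 levels of basal epithelium markers were 6.91 and 6.86, against 7.50 to 7.97 in the other 10 animals. KRT5 and COL17A1 were lowest in these 2 animals, at 451 and 498 FPKM and at 57.5 and 53.2 FPKM. Not every marker of the list was. In control 6, TP63 was at 37.0 FPKM, against 32.3 in control 3. In treated 6, KRT15 was at 758 FPKM, against 625 in control 3. Their mean log2 levels of general epithelium markers, 6.10 and 6.34, lay within the 6.08 to 6.45 of the other animals.

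Per length of transcript, the 10 genes fell into levels that differed widely. ITGA6 was at 60.9 ± 8.74 FPKM (mean ± SD, n = 12), ITGB4 at 59.4 ± 21.9 and ITGB1 at 56.2 ± 7.91, and their ranges overlapped. ITGA6 alone held on average 26.3% of the summed FPKM of the 10 genes. The most abundant of the 10 was ITGB4 in 5 animals, ITGA6 in 4 and ITGB1 in 3. ITGAV followed at 26.8 ± 3.35 FPKM, below ITGB1 and above ITGA2 in all 12 animals with no overlap of ranges. ITGA2, ITGA3 and ITGB6 formed an intermediate level at 8.98 ± 2.03, 8.78 ± 2.27 and 7.43 ± 2.64 FPKM, and neighbours in this order did not differ beyond their spread. ITGB8, ITGA5 and ITGA8 were lowest at 1.69 ± 0.618, 1.23 ± 0.547 and 0.851 ± 0.750 FPKM, again with overlapping ranges. ITGB6 exceeded ITGB8 in 12 of 12 animals, although the ranges of the 2 genes over animals overlapped.

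**Figure D1:**
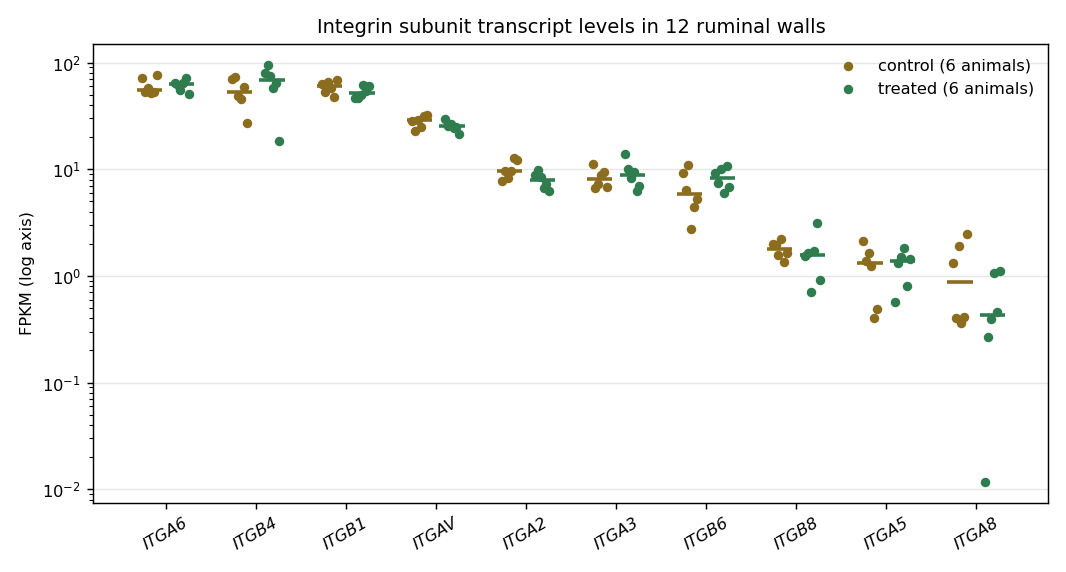
FPKM of each integrin gene on a log axis, with 1 point per animal and a bar at the median for the control and treated groups of 6. ITGA6, ITGB4 and ITGB1 share the top level, ITGA8 spans the widest range, and the points of the 2 groups overlap for every gene.

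The green feed comparison showed no difference for any of the 10 genes that exceeded the spread between animals. With limma on log2(FPKM + 0.01) and Benjamini-Hochberg adjustment, 0 of 10 genes passed an adjusted p of 0.05, as did 0 of the 12769 genes tested (0.0%). At an unadjusted p of 0.05, 0 of the 10 genes passed, beside 163 of 12769 (1.28%), of which 102 were higher (0.799%) and 61 lower (0.478%) in treated animals. With voom on the fragment numbers the adjusted count over all genes was also 0, with 146 genes at an unadjusted p of 0.05 and 0 of the 10 members. ITGA2 lay just short of that threshold, at an unadjusted p of 0.0502 by voom. The adjusted p of limma was 0.9996 for each of the 10. The log2 fold changes of treated against control were positive for 5 genes and negative for 5, with a median of -0.06, beside 0.0050 over all genes tested. The signs of ITGA3, ITGA5 and ITGA6 turned when single animals were left out. For none of the 10 were the control and treated ranges separate, whereas 7 of 12769 genes had separate ranges (0.0548%). The 12 animals were separate individuals, so that the errors measure the spread between animals.

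**Figure D2:**
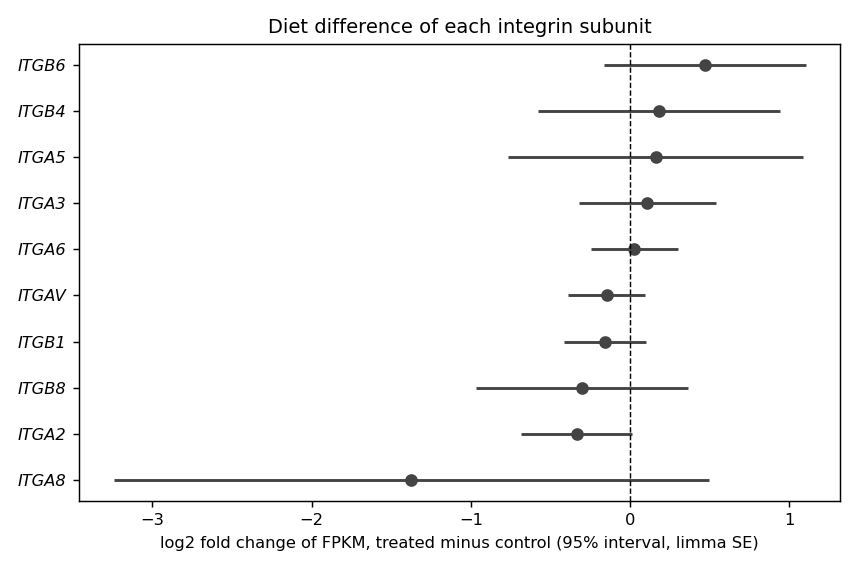
Log2 fold change of treated against control for each integrin gene, as fitted by limma on log2(FPKM + 0.01), with its 95% interval. Every interval crosses 0, and that of ITGA8 is the widest of the 10.

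Among the laminin receptors, ITGA6, the alpha subunit shared by alpha6beta4 and alpha6beta1, ranged from 51.9 to 75.7 FPKM among controls (median 55.4). Among treated animals it ranged from 50.5 to 71.9 (median 62.4). The groups overlapped, with 1 treated animal below all controls and 2 controls above all treated animals. Its log2 fold change was 0.03 (SE 0.13), with an adjusted p of 0.9996 by limma and p = 0.829 by a 2-sided exact permutation test of the log2 values, the test used for each gene below. The 95% interval of this difference ran from -0.25 to 0.30. ITGA6 had a smaller spread within groups than most genes, with 16.99% of the genes tested having a smaller one.

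ITGB4 encodes the beta subunit of the hemidesmosome. Its level was 27.1 to 72.7 FPKM among controls (median 53.5) and 18.6 to 95.2 among treated animals (median 69.2). Treated animals 1, 2 and 3 were above all controls, and treated animal 6 was below all of them. For ITGB4 the log2 fold change was 0.18 (SE 0.35, exact p = 0.649, adjusted p = 0.9996 by limma). Without treated animal 6 it was 0.51 (exact p = 0.0693), which passed an unadjusted p of 0.05 in limma, and without control animal 6 it was 0.00007. Without both animals 6 it was 0.33 (exact p = 0.119). The adjusted count over all genes was 0 in each of these limma fits.

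ITGA3, the alpha subunit of the laminin receptor alpha3beta1, ranged from 6.67 to 11.3 FPKM (median 8.08) in the control group and from 6.28 to 14.01 (median 8.87) in the treated group. In the treated group 1 animal was above and 1 was below all controls. Its log2 fold change was 0.11 (SE 0.20, exact p = 0.615, adjusted p = 0.9996 by limma).

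ITGB1, the common partner of ITGA2, ITGA3, ITGA5, ITGA8 and others, ranged from 47.9 to 68.7 FPKM among controls (median 59.998). Among treated animals it ranged from 46.0 to 62.1 (median 51.9). In this gene 3 controls were above all treated animals, and 2 treated animals were below all controls. ITGB1 had a log2 fold change of -0.16 (SE 0.12, exact p = 0.186, adjusted p = 0.9996 by limma), with a 95% interval from -0.42 to 0.10.

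ITGA2, the collagen-binding subunit of alpha2beta1, had the smallest unadjusted p of the 10, in limma and in the exact test. Controls lay between 7.69 and 12.9 FPKM (median 9.61) and treated animals between 6.29 and 9.82 (median 7.86). Of the 6 controls, 2 were above all treated animals, and 3 treated animals were below all controls. The difference in ITGA2 was -0.34 on the log2 scale (SE 0.16, exact p = 0.0649, adjusted p = 0.9996 by limma), with an interval from -0.68 to 0.01. Without both animals 6 it was -0.21 (exact p = 0.238). Leaving out control 1, control 3 or treated 2 alone gave -0.41, -0.39 and -0.40, with exact p of 0.0411, 0.0498 and 0.0390.

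ITGA1, the alpha subunit of the other widely expressed collagen receptor, is next to ITGA2 in the RefSeq annotation with 0 genes between them. It averaged 4.39 FPKM, and its log2 fold change was -0.46 (SE 0.23, exact p = 0.0693).

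ITGAV, the alpha subunit of the receptors that bind the RGD motif of latent TGF-beta and vitronectin, was at 22.97 to 32.5 FPKM in controls (median 28.7) and at 21.5 to 29.4 in treated animals (median 25.3). The lowest animal was treated and the 2 highest were controls. Its log2 fold change was -0.15 (SE 0.11, exact p = 0.175, adjusted p = 0.9996 by limma). Of the genes tested, 7.79% had a smaller spread within groups than ITGAV.

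ITGB6, its epithelial partner, spanned 2.74 to 10.98 FPKM in controls (median 5.84) and 5.95 to 10.8 in treated animals (median 8.28). Controls 4, 5 and 6 were below all treated animals, while control 3 was above all of them. The difference was 0.47 on the log2 scale (SE 0.30, exact p = 0.186, adjusted p = 0.9996 by limma), with an interval from -0.16 to 1.10. Without control 3 it was 0.65 (exact p = 0.0541) and passed an unadjusted p of 0.05 in limma.

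ITGB8, the other TGF-beta-activating partner, ranged from 1.36 to 2.21 FPKM (median 1.79) among controls and from 0.706 to 3.12 (median 1.58) in the treated group. The treated animals enclosed the controls on both sides. ITGB8 had a log2 fold change of -0.30 (SE 0.31, exact p = 0.370, adjusted p = 0.9996 by limma).

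ITGA5, the fibronectin receptor subunit, ranged from 0.405 to 2.12 FPKM (median 1.31) in the control group and from 0.566 to 1.81 (median 1.38) in the treated group. Its values rested on 22 to 118 fragments in an animal. Its log2 fold change was 0.16 (SE 0.43, exact p = 0.723, adjusted p = 0.9996 by limma).

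ITGA8, which pairs with beta1 to bind nephronectin, ranged from 0.365 to 2.49 FPKM among controls (median 0.871). Among treated animals it ranged from 0.0117 to 1.10 (median 0.430). The lowest value was 1 fragment, in treated animal 1, where 3 fragments, the fewest told from 0 here, would be 0.0352 FPKM. Controls 1, 3 and 6 were above all treated animals, and treated animals 1 and 2 were below all controls. A log2 fold change of -1.37 (SE 0.87, exact p = 0.188, adjusted p = 0.9996 by limma) depended on the pseudocount, being -0.97 at 0.1 FPKM and -0.42 at 1 FPKM. Without treated animal 1 it was -0.59 (exact p = 0.381). Of the genes tested, 98.7% had a smaller spread within groups than ITGA8.

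Markers of smooth muscle and of fibroblasts had lower median sums in treated animals, with overlapping ranges and 0 adjusted calls by limma. The median sums of endothelium markers and of enteric neuron and glia markers were lower too. Those of leukocyte, basal epithelium and general epithelium markers were higher. The 6 tested leukocyte genes nevertheless all had negative log2 fold changes, with a median of -0.12. The summed FPKM of the 9 smooth muscle markers was 28.5 to 50.4 in controls (median 36.1) and 15.4 to 40.1 in treated animals (median 24.3). SMTN, the most abundant of them at 13.5 FPKM, weighs heavily in this sum. It gave 18.8 of 23.8 FPKM in treated animal 1 and 15.8 of 22.8 in treated animal 2. Its log2 fold change was -0.03, and it was lowest in control 6 and treated 6, at 4.56 and 3.47 FPKM. All 7 tested smooth muscle genes had negative log2 fold changes, with a median of -0.72. LMOD1, at -0.68, passed the filter of 40 fragments only through control 1, at 43, against at most 26 in treated animals. Of the 7, only DES passed an unadjusted p of 0.05 in limma, with a log2 fold change of -1.04 (SE 0.42, exact p = 0.0519). The 7 tested fibroblast genes were also all negative, with a median of -0.73 and summed FPKM of 45.3 to 279 in controls (median 106) and 19.7 to 180 in treated animals (median 94.5), and 0 of 7 passed an unadjusted p of 0.05. The smooth muscle score, the mean log2(FPKM + 0.01) of the 9 markers, includes CNN1 and ACTG2, which were not tested by limma. They were at 0 to 2 fragments in treated animals 1, 2 and 6, against at least 8 and 6 in controls. The score thus rests in part on values near 0 in treated animals. The exact test, on these same few fragments, gave log2 differences of -3.06 for CNN1 and -2.21 for ACTG2 (exact p = 0.0238 each). With the smooth muscle score as a covariate, 1 of the 10 members, ITGA2, passed an unadjusted p of 0.05 in limma, at a log2 fold change of -0.50 (SE 0.20). Over all 12769 genes tested, 224 passed with this covariate. In that fit ITGA8 was at -0.25 (SE 1.00), ITGB1 at -0.03 (SE 0.14) and ITGB8 at -0.17 (SE 0.40), nearer to 0 than without the covariate, as were ITGA3 at 0.01 (SE 0.26) and ITGAV at -0.12 (SE 0.15). ITGB6 was at 0.73 (SE 0.36), ITGA5 at 0.42 (SE 0.55), ITGB4 at 0.24 (SE 0.46) and ITGA6 at 0.16 (SE 0.15), farther from 0. With the basal epithelium score as a covariate, 0 of the 10 passed, and ITGB4 was at 0.05 (SE 0.17). The part of fibroblasts in the integrin values was not tested.

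Ratios of alpha to beta transcripts within an animal were computed for 9 known pairs. ITGAV exceeded ITGB6 by 2.33 to 9.12 times and ITGB8 by 8.04 to 37.2 times, in 12 of 12 animals for both. The ratio of ITGA6 to ITGB4 had a median of 1.07 and a range from 0.642 to 2.79, and that of ITGA6 to ITGB1 had a median of 1.10 and a narrower range, from 0.830 to 1.38. ITGA2, ITGA3, ITGA5 and ITGA8 were each below ITGB1 in every animal.

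None of the 9 ratios differed between diets at p of 0.05 by an exact permutation test (2-sided, unadjusted, smallest possible p = 0.00216). The smallest p was that of ITGAV to ITGB6, whose mean log2 ratio was 1.63 ± 0.29 with green feed and 2.25 ± 0.73 in controls (SD, n = 6). The difference was -0.62 (exact p = 0.0974). Without control 3 its exact p was 0.0390. The ratio of ITGA6 to ITGB1 differed by 0.18 (exact p = 0.199), and by 0.28 (exact p = 0.0346) without treated 6.

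**Figure D3:**
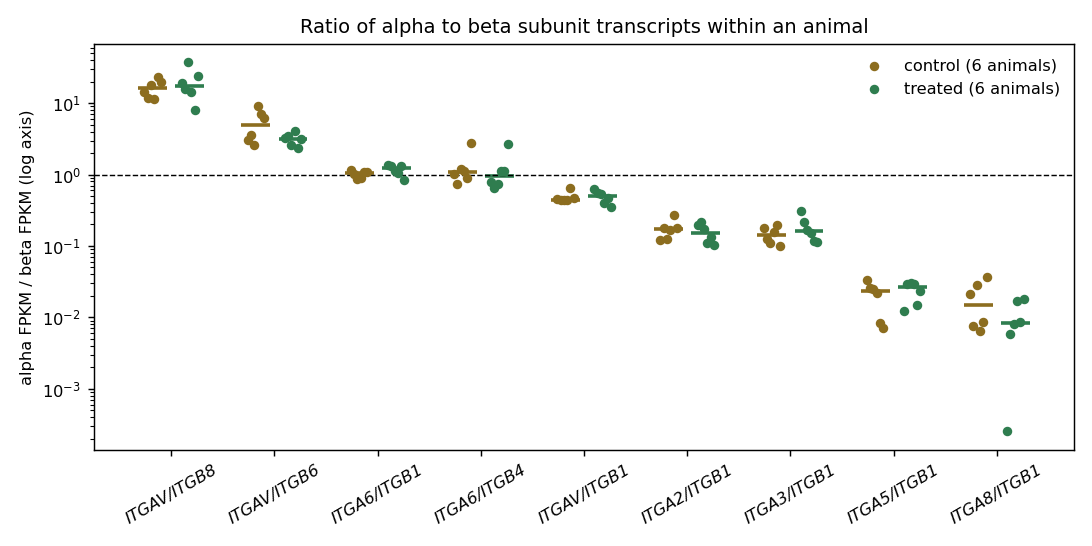
Ratio of alpha to beta subunit FPKM within each animal on a log axis, for 9 known pairs, with 1 point per animal and a bar at the median of each group of 6. The pairs of ITGAV with ITGB8 and ITGB6 lie above 1 in every animal, those of ITGA6 lie around 1, and the control and treated points overlap for every pair.

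Across the 12 animals, 1 of the 9 pairs varied together. ITGA8 and ITGB1 had Pearson's r = 0.83 (permutation p = 5.0e-05, adjusted over 9 relations 0.00045) and Spearman's rho = 0.90 (permutation p = 0.00023, adjusted 0.00207). Without treated 1 and control 6, the 2 animals farthest from the median of ITGA8, r was 0.90. It was 0.89 within controls, 0.78 within treated animals and 0.78 without both animals 6. In controls 1, 3 and 6 and treated animals 4 and 6, ITGA8 was at least 1.06 FPKM and ITGB1 at least 60.8, while in the other 7 animals ITGA8 was at most 0.462 and ITGB1 at most 57.3, so that much of the relation lies between these sets of animals. Of the other 8 pairs, whose r ran from -0.43 to 0.31, none passed, with adjusted permutation p of at least 0.708 for r and at least 0.556 for rho. ITGA6 and ITGB4, the hemidesmosome pair, had r = 0.14 (adjusted permutation p = 0.955).

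**Figure D4:**
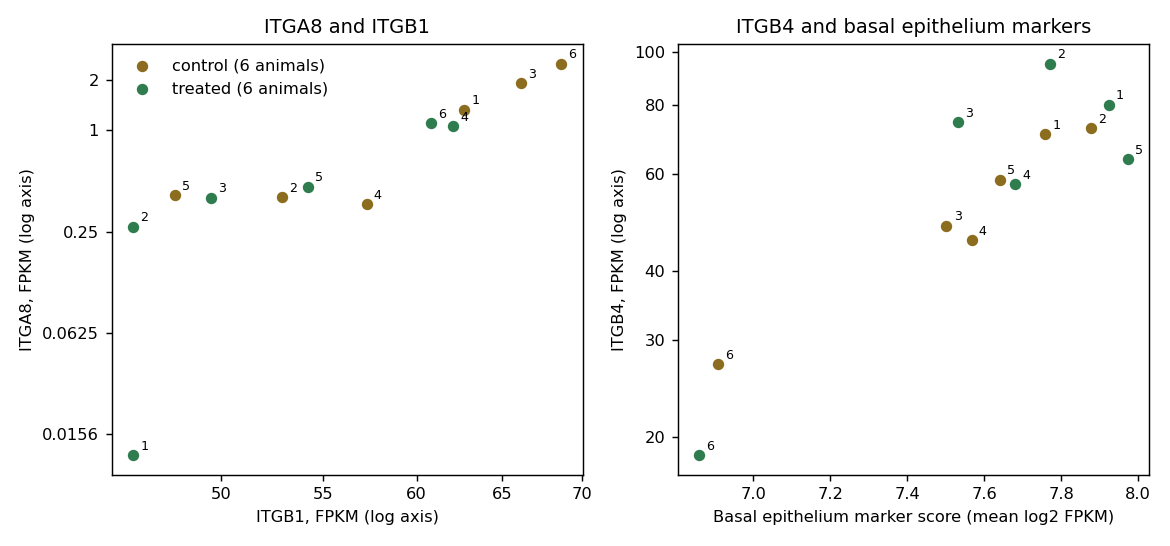
FPKM of ITGA8 against ITGB1 (left, log axes), and FPKM of ITGB4 (log axis) against the mean log2 FPKM of basal epithelium markers (right), with 1 numbered point per animal of the control and treated groups of 6. ITGA8 and ITGB1 vary together over the animals, and the relation of ITGB4 with the basal epithelium markers is set largely by the 2 animals numbered 6.

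The 10 genes were also compared with the mean log2 level of basal epithelium and of smooth muscle markers, in 20 relations. ITGB4 had r = 0.90 with the basal epithelium markers (permutation p = 0.0007, adjusted 0.0140) and rho = 0.72 (permutation p = 0.0109, adjusted 0.0862). Without control 6 and treated 6, which are the 2 animals farthest from the median of the markers, r was 0.54, so that the relation rests in large part on them. Within controls r was 0.98 and within treated animals 0.88, each with 1 of these animals. ITGA8 and ITGB1 had rho of 0.75 and 0.71 with the smooth muscle markers (permutation p = 0.00687 and 0.0129, both 0.0862 adjusted), and r of 0.59 and 0.60 (both 0.273 adjusted). Without treated 1 and treated 2, the animals farthest from the median of the markers, these r were 0.31 and 0.24. In these 2 animals CNN1 and ACTG2, which count in the score, were at 0 to 2 fragments.

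The genes whose pattern over the 12 animals was most like each member are given as a description, by Pearson's r of log2(FPKM + 0.01), and share libraries and depth with it. ITGB4 was closest to RAI1 (r = 0.99), MFN2 (0.99) and LRP5 (0.99), and 576 of the 12769 genes had r above 0.9 with it. For the other 9 members this number was between 0 and 30. ITGB4 was lowest in treated 6 and control 6, at 18.6 and 27.1 FPKM. These 2 animals were also the 2 lowest in 19.2% of the genes tested, and r without them was not computed for these genes. ITGB1 was closest to CALD1 (0.96), which encodes an actin-binding protein of smooth muscle, MYLK (0.94), which encodes myosin light chain kinase, and ZCCHC24 (0.94). ITGA8 was closest to the transcription factor gene MEF2C (0.96), GEM (0.95) and SDC2 (0.95), a syndecan. ITGA5 was closest to VWF (0.94), which encodes von Willebrand factor of endothelium, RASA4B (0.93) and FGD5 (0.91).

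ITGA3 was closest to the ephrin receptor gene EPHA2 (r = 0.91), RHBDF2 (0.91) and EHD1 (0.89). ITGA6 was closest to LOC102416610 (0.90), CHTF8 (0.86) and ASPM (0.85), the last encoding a protein of the mitotic spindle. ITGA2 was closest to BTAF1 (0.89) and LOC112578107 (0.87), and ITGAV to LRBA, LNPEP and TMTC3 (0.82 each). ITGB6 was closest to KIZ (0.87), PPEF1 (0.87) and POC1B (0.86), and ITGB8 to TMEM179B (0.92), RBM39 (0.92) and RINL (0.88).

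Other genes of the integrin system gave no call either. Of the 16 further integrin subunits listed, 15 were in the table and 14 were tested, with 0 at an unadjusted p of 0.05 by limma and a median log2 fold change of -0.05. The most abundant was ITGB5, a further partner of ITGAV, at 52.5 FPKM, followed by ITGA1 and by ITGB7 at 3.81 FPKM, and the lowest was ITGA7 at 0.226. Of the ligands, 18 were tested and 0 passed, with a median of -0.09. MFGE8, a ligand of ITGAV integrins, was the most abundant at 145 FPKM, followed by the collagen gene COL3A1 at 32.1. FN1, which encodes fibronectin, had a log2 fold change of -0.83 (exact p = 0.258). VTN and FGG were below 0.1 FPKM on average.

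The 6 tested hemidesmosome partners had 0 calls and a median of 0.13, and the most abundant were COL17A1 at 126 and DST at 50.1 FPKM. LAMA3, which encodes a laminin chain, had a log2 fold change of 0.10 (exact p = 0.550). Of the 21 tested genes of integrin activation and adhesion complexes, 0 passed and the median was 0.01. ACTN4 and the talin gene TLN1 were highest, at 48.3 and 29.2 FPKM, and the vinculin gene VCL and the kindlin gene FERMT2 had the smallest unadjusted p in limma (their exact p were 0.232 and 0.465). Of the 7 tested genes of latent TGF-beta and its anchors, 0 passed and the median was 0.04. LTBP2 and LTBP4 were highest, at 15.6 and 6.85 FPKM, while TGFB1 and LRRC32 had the smallest unadjusted p in limma (their exact p were 0.240 and 0.273).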

How the data were processed

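The authors sequenced stranded total RNA libraries, 1 per animal, and used Trimmomatic 0.39, STAR 2.5.2b and featureCounts 2.0.0 on the UOA_WB_1 genome. They deposited FPKM values per gene for 16 columns, of which 12 matched the sample labels and 4 were not used here. Each gene's FPKM values step by the worth of 1 fragment, and fragment numbers were recovered for 22972 of 22972 genes above 0 (tolerance 0.02). They served for depth, for the filter of 40 fragments in at least 1 animal and for voom.

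The test was limma 3.58.1 in R 4.3.3 (lmFit, eBayes with trend) on log2(FPKM + 0.01), treated against control, over 12769 genes with Benjamini-Hochberg adjustment, and was checked on simulated data. Fold changes are on that log2 scale. For low genes they depend on the pseudocount and on animals with few fragments, as for ITGA8. Ratios were tested by exact permutation, and correlations by 100000 permutations. Named were all 10 members, the 3 most abundant other subunits, the 2 genes of smallest p and 2 of highest mean FPKM of each pathway list, and the 3 genes most like each member. A few genes that this rule names are not reported here. Genes named from marker lists outside this rule were picked with their values in view. The members and lists were chosen with earlier results of these data known. Alternatives covered pseudocounts, filters, scaling, covariates, voom, the replicate block and leaving out animals. Leaving out both animals 6 was chosen after seeing the data. RefSeq was used only for gene neighbours, from assembly NDDB_SH_1.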

Additional observations from a re-analysis of the deposited data

Results flagged for a closer look

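In 2 of the 20 groups of 6 animals examined (10 genes in 2 diets), 1 animal lay far from the other 5 by Dixon's test, where chance gives about 1 in 20. ITGA8 in treated animal 1 was at 0.0117 FPKM, with a gap of 0.648 of the range on the log2 scale. ITGB4 in treated animal 6 was at 18.6 FPKM, with a gap of 0.692 of the range.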

How the results depend on the processing

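The adjusted count over all genes was 0 under each alternative run with limma or voom. At an unadjusted p of 0.05 the count over all genes, 163, became 562 with all genes above 0 and 301 when 6 or more animals had to reach 0.1 FPKM. It became 224 with the smooth muscle score and 286 with the basal epithelium score as a covariate, and 318 without both animals 6. When 1 animal was left out it was between 144 and 332.

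The members' count of 0 became 1 with the smooth muscle score as a covariate (ITGA2), and ran from 0 to 2 when 1 animal was left out. With the exact test it ran from 0 to 1. The count of 1 over the gene lists became 3 with all genes above 0, 3 with the 0.1 FPKM filter and 2 with voom. It became 0 with the smooth muscle score, 2 with the basal epithelium score and 2 without both animals 6. In the same order, the counts over all genes were 562, 301, 146, 224, 286 and 318, beside 163 in the main fit. The count over the lists ran from 0 to 5 when 1 animal was left out. The count of 0 over the partner ratios became 1 without both animals 6 (ITGA6 to ITGB1, 0.30, exact p = 0.0397) and ran from 0 to 1 when 1 animal was left out. The cause was not tested.

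With the replicate number as a block, 1 member (ITGB6) passed an unadjusted p of 0.05, as did 3 genes of the lists and 326 of all genes, with 0 adjusted. The numbers belong to different animals in each diet, and 4 of 6 same-numbered pairs deviated together with r over 0.1 (mean 0.209, against -0.0388 for the 30 other pairs). Of the 12 animals, 7 correlated best with their own number. Whether the numbers mark a shared batch or order was not tested.

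Some values changed sign. When animals were left out, the log2 fold change ran from -0.023 to 0.21 for ITGA3, -0.11 to 0.37 for ITGA5 and -0.022 to 0.15 for ITGA6. For log2 ratios it ran from -0.072 to 0.10 for ITGAV to ITGB1, -0.43 to 0.094 for ITGA6 to ITGB4 and -0.057 to 0.39 for ITGAV to ITGB8. With median-ratio scaling, r became -0.14 for ITGA6 with ITGB4, -0.057 for ITGAV with ITGB6, -0.11 for ITGAV with ITGB8, -0.011 for ITGA5 with the basal epithelium score and -0.16 for ITGA6 with it. For ITGB6 with the smooth muscle score r became 0.0080 and 0.043 at pseudocounts of 0.1 and 1. Depth limits ITGA8 and ITGA5 most, with 1 to 187 and 22 to 118 fragments in an animal.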
